A study of Mus musculus with 8 samples.

Results

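The expression of 9 genes of the cochlear tight junction barrier was described in whole cochleae of mice carrying 1 mutant copy of Opa1. The genes were chosen by name: the claudins Cldn11, Cldn9, Cldn14, Cldn5 and Cldn6, the tricellular and MARVEL-family proteins Marveld2, Ildr1 and Ocln, and the scaffold Tjp1. All 9 were listed among the 47628 entries naming a gene, and all 9 had enough counts to be among the 19366 genes tested. RNA was sequenced from the cochleae of 4 wild-type (WT) and 4 Opa1+/- littermates aged 21 days, on a mixed background that is in part C57BL/6 J. The Opa1+/- mice are heterozygous for the delTTAG knock-in allele in every cell, and homozygous animals of this line do not survive. OPA1 is a dynamin-related GTPase that fuses mitochondrial inner membranes and shapes the cristae. The study asked which cochlear transcripts differ at an age before hearing is lost. Mice are named by their labels (Het for Opa1+/-), and the 4 values of a group are given throughout in the order WT_4, WT_5, WT_6, WT_8 and Het_2, Het_7, Het_484, Het_491.

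Tight junctions seal the space between neighbouring epithelial cells, and in the cochlea they keep the potassium-rich endolymph apart from the perilymph. Claudins form the sealing strands between pairs of cells, occludin joins these strands, tricellulin and the angulins close the points where 3 cells meet, and ZO-1 ties the strands to actin. Several of these genes cause deafness when lost: CLDN14, MARVELD2 and ILDR1 in people, and Cldn9, Cldn11 and Ocln in mice.

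The 5 claudins are shown first by the stretch of coding sequence that marks the family. Likeness of sequence bears on whether short reads can tell them apart. Each line gives bases from the first extracellular loop, 5′ to 3′ on the coding strand, from the GENCODE vM21 transcripts of GRCm38. Capitals mark the leucine-tryptophan pair and the 2 cysteines of the claudin signature.
Cldn11: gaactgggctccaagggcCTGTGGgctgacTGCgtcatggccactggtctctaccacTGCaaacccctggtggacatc
Cldn9: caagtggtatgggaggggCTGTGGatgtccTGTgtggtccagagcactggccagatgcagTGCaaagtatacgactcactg
Cldn14: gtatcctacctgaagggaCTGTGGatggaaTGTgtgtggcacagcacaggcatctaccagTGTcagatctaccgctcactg
Cldn5: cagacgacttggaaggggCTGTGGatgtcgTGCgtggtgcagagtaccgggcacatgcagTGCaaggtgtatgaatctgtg
Cldn6: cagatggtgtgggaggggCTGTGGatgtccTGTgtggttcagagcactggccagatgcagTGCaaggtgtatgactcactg
The stretches lie within single coding exons at chr3:31150285-31150362 for Cldn11 (plus strand), chr17:23683440-23683520 for Cldn9 (minus strand), chr16:93919747-93919827 for Cldn14 (minus strand), chr16:18777125-18777205 for Cldn5 (plus strand) and chr17:23681193-23681273 for Cldn6 (plus strand). The signature cysteines are 8 codons apart in Cldn11 and 9 codons apart in the other 4 claudins. Over the whole coding sequence, Cldn9 and Cldn6 were the closest pair, with 73.2% identical bases. Their longest identical run between whole transcripts was 37 bases, shorter than the 80-base reads. The other pairs shared 47.5% to 61.9% of coding bases, with longest identical runs of 10 to 20 bases between transcripts. Cldn9 (chr17:23682584-23684026, minus strand) and Cldn6 (chr17:23679249-23682446, plus strand) are also neighbours that run towards each other with 137 bases between their ends. No annotated gene overlaps an exon of any of the 9 genes.

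The libraries held 15978051 to 20828030 counts on named genes. Opa1 checked the genotypes: library-size-scaled counts (CPM, with TMM factors) were 118.7, 125.9, 111.7 and 122.4 in WT and 63.5, 68.4, 60.4 and 70.02 in Opa1+/- mice. The groups did not overlap, and the log2 fold change was -0.87 (SE 0.0677, edgeR adjusted p = 0.00515). Markers of the cell types that a dissected cochlea holds were detected, and no marker with an entry in the files was at 0 in all mice. Summed neutrophil markers were 1401 CPM in WT_4 and 1168 CPM in Het_491, against 430.4 to 854.3 CPM in the other 6 mice. Summed erythroid markers were 21454 and 25054 CPM in these mice, against 7746 to 18451 CPM, and summed strial marginal markers were 255.6 and 253.8 CPM, against 364.5 to 505.6 CPM.

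Cldn11 was by far the most abundant of the 9 transcripts. Levels were compared between genes as CPM per kilobase of exon, averaged over all 8 mice. Cldn11, the claudin of strial basal cells and of central myelin, averaged 66.4 ± 10.5 CPM per kilobase (SD, n = 8). Next came Tjp1 at 24.3 ± 2.49, Cldn9 at 18.9 ± 1.70 and Cldn5 at 13.8 ± 2.43 CPM per kilobase. The ranges of Tjp1 and Cldn9 overlapped, as did those of Cldn9 and Cldn5, although Cldn9 exceeded Cldn5 in 8 of 8 mice.

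Transcripts of the proteins of bicellular and tricellular contacts were lower than those of the abundant claudins. Ocln averaged 3.96 ± 0.661, Ildr1 2.74 ± 0.429 and Marveld2 1.25 ± 0.205 CPM per kilobase (SD, n = 8). Cldn14 at 0.982 ± 0.141 and Cldn6 at 0.584 ± 0.206 CPM per kilobase closed the order. The ranges of Ocln and Ildr1, of Marveld2 and Cldn14, and of Cldn14 and Cldn6 overlapped, whereas Cldn11 and Tjp1, Cldn5 and Ocln, and Ildr1 and Marveld2 were separated in range.

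Among 33 listed claudins with a known exon length, Cldn11 held 41.1 ± 3.12% of the summed CPM per kilobase in WT and 40.1 ± 2.00% in Opa1+/- mice (SD, n = 4 each). The 5 claudins described here held 61.5 ± 3.46% in WT and 61.8 ± 2.09% in Opa1+/- mice. Cldn9 ranked 2, Cldn5 ranked 4, Cldn14 ranked 16 and Cldn6 ranked 21 by level among these 33, which leave out the claudin domain gene Cldnd1. Cldn3, a sealing claudin of many epithelia, stood between Cldn9 and Cldn5 at 14.1 CPM per kilobase. In 7 of the 33 claudins no read was counted in any mouse.

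**Figure D1:**
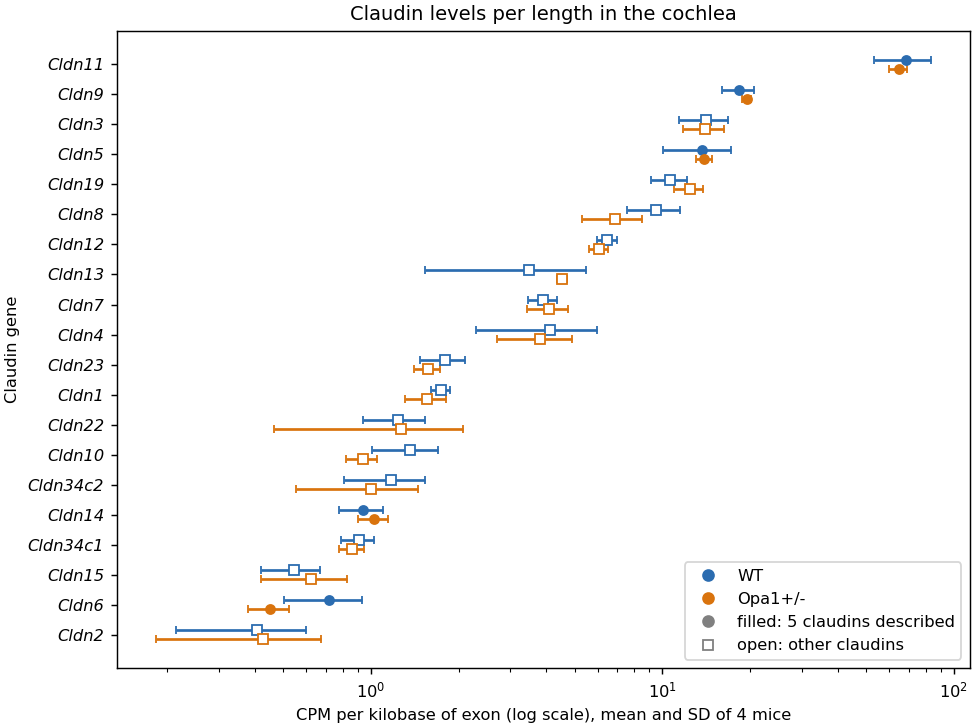
CPM per kilobase of exon (log axis) of the 20 claudins tested, as the mean and SD of 4 WT mice (blue) and 4 Opa1+/- mice (orange); filled points are the 5 claudins described here. Cldn11 lies above every other claudin shown, and the genotypes lie apart most at Cldn6, Cldn10 and Cldn8.

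None of the 9 genes passed the adjusted threshold between genotypes in edgeR, against 0.0258% of all genes tested (5 of 19366), and none did in DESeq2, against 0.132%, or in limma-voom, against 0.0516%. The lowest adjusted p among them was 0.728 in edgeR (Cldn6), 0.739 in DESeq2 (Tjp1) and 0.479 in limma-voom (Tjp1). At an unadjusted p under 0.05, 2 of 9 were lower in Opa1+/- mice, Cldn6 and Tjp1, and none was higher, against a background of 6.72% of all genes in either direction and 3.22% lower. With so few genes, 2 of 9 is a count and not a test, and DESeq2 and limma-voom gave 1 of 9 each, with backgrounds of 5.76% and 10.3%. The edgeR count was 0 without WT_5, WT_6 or Het_484, 1 without WT_4, Het_2, Het_7 or Het_491, and 3 without WT_8. The share of all genes under that p was not counted in these fits. The median log2 fold change of the 9 was -0.021, and 6 were negative, while the median over all genes was 3.95e-04, with 49.9% negative. In 0 of 9 genes were the CPM ranges of the groups separate, against 4.31% of all genes. Since whole cochleae were sequenced, fewer cells of a type and less RNA per cell cannot be told apart. WT_4 was the lowest WT mouse in 7 of 9 genes and WT_6 the highest in 6 of 9. Erythroid markers were higher in Opa1+/- mice for 9 of 9 genes (7746 to 21454 CPM summed in WT, 15062 to 25054 CPM in Opa1+/- mice, median log2 fold change 0.56), and skeletal muscle markers for 0 of 6 (126.9 to 1564 and 13.3 to 579.6 CPM, median -0.82), with 0 of these 15 genes at an unadjusted p under 0.05. The part of these markers in the values of the 9 genes was not tested.

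**Figure D2:**
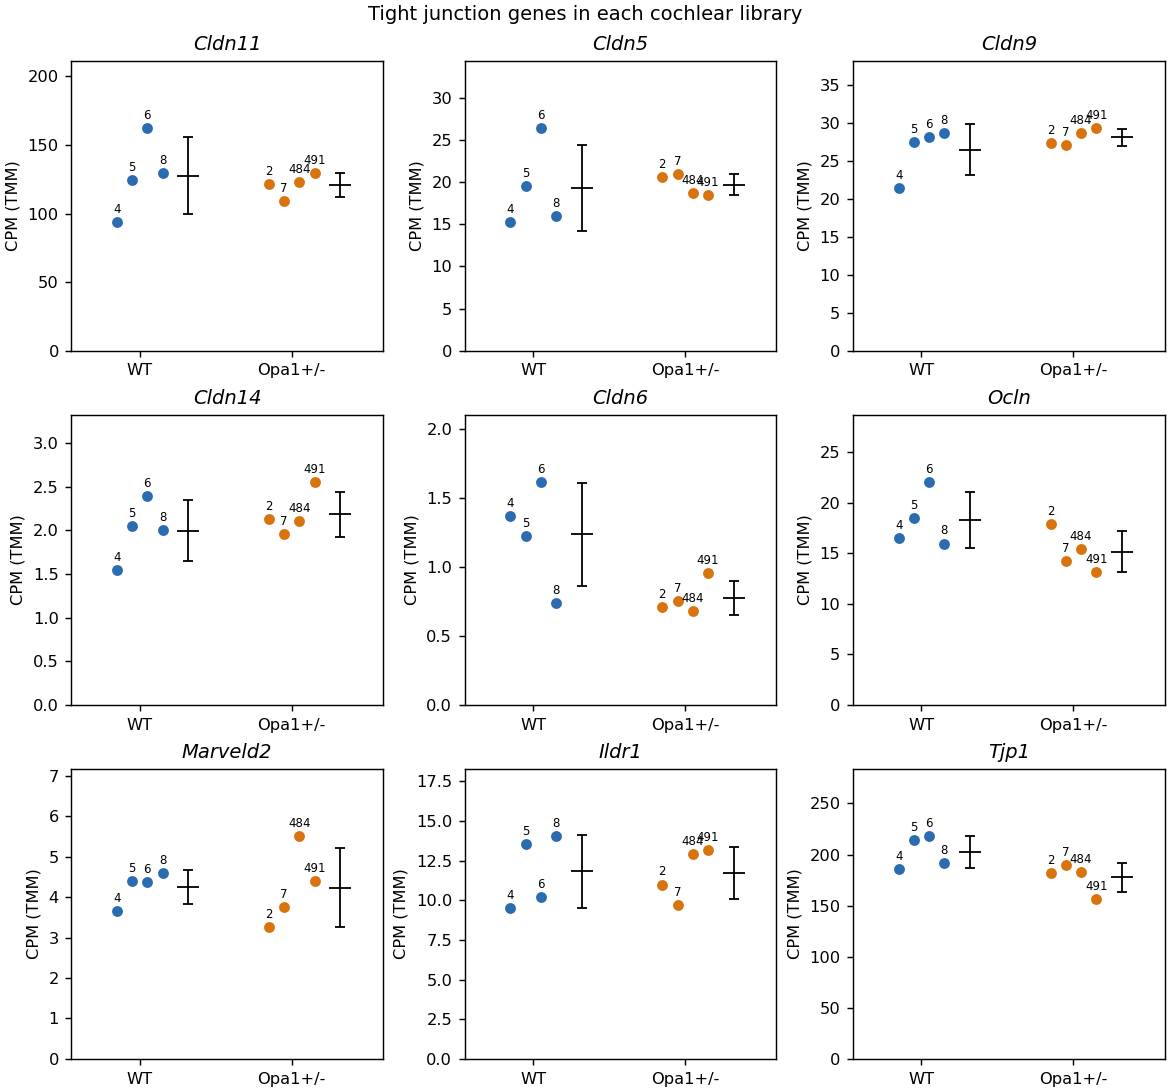
TMM-scaled CPM (linear axis from 0) of each of the 9 genes in every mouse, WT in blue and Opa1+/- in orange, points numbered by animal, with the mean and SD of each group of 4 beside them. The groups overlap in every panel, and the lowest WT point is WT_4 in 7 of the 9 panels.

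**Figure D3:**
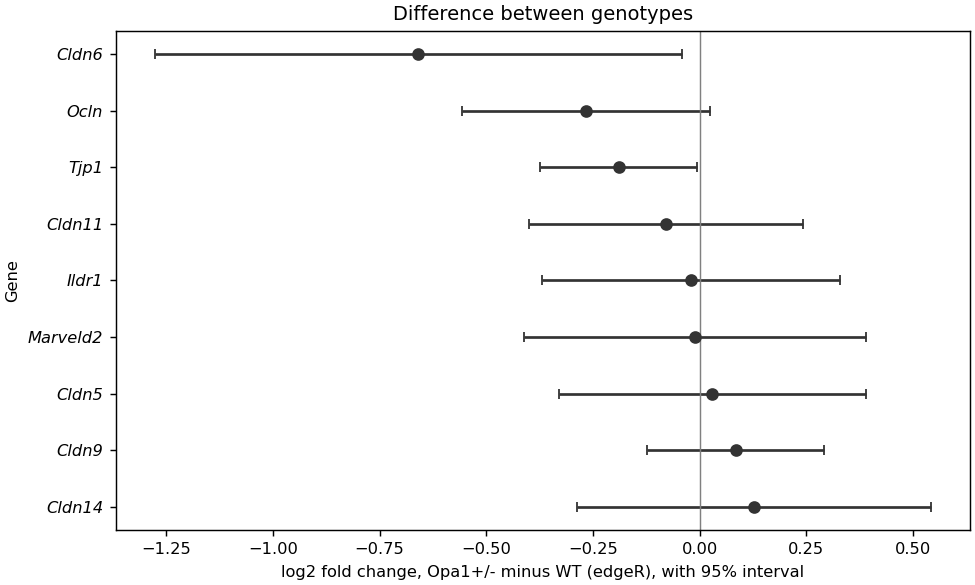
Log2 fold change of Opa1+/- over WT for the 9 genes from edgeR, with 95% intervals. The intervals of Cldn6 and Tjp1 end just below 0 and those of the other 7 genes include 0.

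Cldn11 (chr3:31149920-31164324, plus strand) makes the strands of the strial basal cells, which isolate the intrastrial space, and of oligodendrocyte myelin. It measured 93.8, 124.8, 162.4 and 129.6 CPM in WT and 121.3, 109.3, 122.8 and 129.9 CPM in Opa1+/- mice. All 4 Opa1+/- values lay inside the WT range. The means were 127.6 ± 28.1 CPM (WT) against 120.8 ± 8.55 CPM (Opa1+/-; SD, n = 4), with a log2 fold change of -0.080 (SE 0.143, adjusted p = 0.933) and a 95% interval of the change from -24.2% to 18.2%. The coefficient of variation was 22.0% among WT and 7.08% among Opa1+/- mice. Without WT_6 the log2 fold change became 0.058, and without WT_4 it became -0.20.

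Cldn9 and Cldn14 are claudins of the reticular lamina, the apical surface where hair cells and supporting cells meet. Cldn9 measured 21.5, 27.4, 28.1 and 28.6 CPM in WT and 27.3, 27.0, 28.6 and 29.3 CPM in Opa1+/- mice. Apart from WT_4, the 7 values lay close together. The means were 26.4 ± 3.34 and 28.0 ± 1.09 CPM (SD, n = 4), with a log2 fold change of 0.085 (SE 0.0924, adjusted p = 0.881) and a 95% interval of the change from -8.14% to 22.4%. Leaving out WT_4 brought the log2 fold change to -0.0014.

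Cldn14 (chr16:93919031-94008837, minus strand) was scarce, with 27 to 42 counts per library. It measured 1.54, 2.05, 2.39 and 2.01 CPM in WT and 2.13, 1.96, 2.10 and 2.55 CPM in Opa1+/- mice. The ranges overlapped, with Het_491 above all WT mice. The log2 fold change was 0.13 (SE 0.185, adjusted p = 0.916), and its 95% interval, from -18.1% to 45.6%, was wide. The coefficient of variation was 17.5% among WT and 11.8% among Opa1+/- mice, and counting error alone is 16.3% and 16.4% at these counts. Without WT_4 the log2 fold change was 0.025, and without WT_6 it was 0.22.

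Cldn5 (chr16:18776847-18778262, plus strand) seals the endothelium of the blood-labyrinth barrier. It measured 15.3, 19.5, 26.4 and 15.96 CPM in WT and 20.6, 20.9, 18.7 and 18.5 CPM in Opa1+/- mice. The Opa1+/- values fell within a narrow band inside the WT range, and WT_6 was the highest of all 8. The means were 19.3 ± 5.09 and 19.7 ± 1.25 CPM (SD, n = 4), with a log2 fold change of 0.030 (SE 0.160, adjusted p = 0.977) that became 0.22 without WT_6 and -0.063 without WT_4.

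Cldn6 is a claudin of embryonic and immature epithelia, and it was the scarcest of the 9, at 11 to 27 counts per library. It measured 1.37, 1.22, 1.61 and 0.73 CPM in WT and 0.71, 0.75, 0.68 and 0.96 CPM in Opa1+/- mice. All 4 Opa1+/- mice were below the WT mean, but WT_8 lay among them, so the groups overlapped. The log2 fold change of -0.66 (SE 0.275, 95% interval of the change -58.7% to -2.88%) had an edgeR unadjusted p of 0.0387 and an adjusted p of 0.728. DESeq2 gave an unadjusted p of 0.0888 and limma-voom 0.117 for the same gene. The coefficient of variation was 30.0% among WT and 16.1% among Opa1+/- mice, and counting error alone is 20.97% and 27.5% at these counts.

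Occludin, tricellulin and angulin-2 form the next layer of the junction, and Ocln (chr13:100496507-100552718, minus strand) was the member of this layer with the largest difference. Ocln measured 16.5, 18.5, 22.05 and 15.96 CPM in WT and 17.9, 14.2, 15.4 and 13.1 CPM in Opa1+/- mice. Het_7, Het_484 and Het_491 lay below all WT mice, while Het_2 lay inside the WT range. The means were 18.3 ± 2.76 and 15.2 ± 2.05 CPM (SD, n = 4). The log2 fold change was -0.27 (SE 0.129, 95% interval of the change -32.0% to 1.67%), with an edgeR unadjusted p of 0.0679 and an adjusted p of 0.758. Without WT_6 the log2 fold change was -0.16 and without Het_2 it was -0.35, and the unadjusted p was under 0.05 in 3 of 17 alternative settings.

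Marveld2 (chr13:100595957-100616971, minus strand), which encodes tricellulin, lies 43238 bases from Ocln. It measured 3.65, 4.39, 4.36 and 4.60 CPM in WT and 3.25, 3.76, 5.51 and 4.40 CPM in Opa1+/- mice. The Opa1+/- mice spread more widely and held both the lowest and the highest value. The log2 fold change was -0.011 (SE 0.178, adjusted p = 0.993), with a 95% interval of the change from -24.8% to 31.0%. The 2 neighbours Ocln and Marveld2 thus had separate values, -0.27 and -0.011 on the log2 scale, whose difference was not tested.

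Ildr1 (chr16:36693978-36726804, plus strand) encodes angulin-2, which recruits tricellulin to tricellular contacts. It measured 9.53, 13.5, 10.2 and 14.1 CPM in WT and 10.998, 9.72, 12.9 and 13.1 CPM in Opa1+/- mice. All Opa1+/- values were inside the WT range. The log2 fold change was -0.021 (SE 0.156, adjusted p = 0.983), and the 95% interval of the change ran from -22.6% to 25.6%. Ildr1, Cldn5 and Cldn14 share chromosome 16 with Opa1, at distances of 7.04, 10.8 and 64.3 megabases, and their log2 fold changes lay between -0.021 and 0.13.

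Tjp1 (chr7:65296165-65527781, minus strand) encodes ZO-1, the scaffold that binds claudins, occludin and actin, and it was counted 2452 to 4386 times per library. It measured 185.9, 214.2, 218.1 and 192.0 CPM in WT and 181.8, 189.6, 182.6 and 156.5 CPM in Opa1+/- mice. Het_2, Het_484 and Het_491 lay below all WT mice, and Het_7 lay above WT_4. The means were 202.6 ± 15.97 and 177.6 ± 14.5 CPM (SD, n = 4), a log2 fold change of -0.19 (SE 0.0819, 95% interval of the change -22.8% to -0.378%). The edgeR unadjusted p was 0.0447 and the adjusted p 0.732, and DESeq2 gave an unadjusted p of 0.0272 and an adjusted p of 0.739. Without Het_491 the log2 fold change was -0.14, and the direction was negative with each mouse left out in turn.

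The rest of the tight junction was examined through 3 lists. Of the other claudins, 16 were tested, 0 passed adjustment and 2 had an unadjusted p under 0.05, both lower in Opa1+/- mice, with a median log2 fold change of -0.042. That is 12.5% of the 16, against 6.72% of all genes in either direction and 3.22% lower. These were Cldn10, a paracellular ion channel claudin, at 3.51 ± 0.901 CPM in WT against 2.43 ± 0.300 CPM in Opa1+/- mice (log2 fold change -0.53, edgeR unadjusted p 0.0372, adjusted p 0.728), and Cldn8, a barrier claudin of tight epithelia, at 22.5 ± 4.70 and 16.2 ± 3.76 CPM (log2 fold change -0.47, edgeR unadjusted p 0.0376, adjusted p 0.728). Cldn19, a claudin of Schwann cells, had a log2 fold change of 0.22 (edgeR unadjusted p 0.0771), and Cldn12 of -0.095 (edgeR unadjusted p 0.265). Summed Schwann cell markers were 1691 to 2356 CPM in WT and 2082 to 2667 CPM in Opa1+/- mice. Of these markers, 6 of 6 were higher in Opa1+/- mice and 1 had an unadjusted p under 0.05. Over all genes, 6.72% passed that p in either direction and 49.9% were negative. The part of the Schwann cell markers in the Cldn19 value was not tested. Cldnd1, Cldn3 and Cldn19 had the highest levels per length on this list, at 15.9, 14.1 and 11.5 CPM per kilobase.

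All 13 other junction strand proteins were tested, and 0 passed adjustment. Of the 13, 11 had a negative log2 fold change, with a median of -0.076, against 49.9% negative over all genes. Only Cxadr, a junctional adhesion receptor that binds ZO-1, had an unadjusted p under 0.05, at 46.3 ± 6.0 CPM in WT against 38.4 ± 2.35 CPM in Opa1+/- mice (log2 fold change -0.27, SE 0.0932, edgeR unadjusted p 0.0168, adjusted p 0.722). This 1 of 13 is 7.69%, near the 6.72% of all genes. Ildr2, an angulin, had a log2 fold change of -0.15 and Jam2, a junctional adhesion molecule, of -0.0996, with edgeR unadjusted p of 0.0930 and 0.344. Jam3, Clmp and Jam2 had the highest levels per length, at 28.3, 19.4 and 13.8 CPM per kilobase.

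Of the junction scaffold and polarity proteins, 23 were tested and 0 passed adjustment. The median log2 fold change was -0.023, with 14 negative and 9 positive. Sympk, a component of the RNA 3′ end processing machinery also found at junctions, was the only one with an unadjusted p under 0.05, at 66.5 ± 4.64 CPM in WT against 73.9 ± 3.69 CPM in Opa1+/- mice (log2 fold change 0.15, edgeR unadjusted p 0.0448, adjusted p 0.732). This 1 of 23 is 4.35%, below the 6.72% of all genes. Prkci and Pard3, of the polarity complex, had log2 fold changes of -0.15 and -0.088. Ybx3, a ZO-1 binding factor, had the highest level on this list at 33.8 CPM per kilobase, and its log2 fold change was 0.13.

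To set claudins beside cell type markers, 4 ratios of CPM to summed marker CPM were tested with exact two-sided permutation tests over mice, for which 4 against 4 allows no p below 0.0286. Cldn5 was 4.99 ± 1.09% of the endothelial sum in WT and 4.73 ± 0.160% in Opa1+/- mice (SD, n = 4, exact permutation p = 0.857, adjusted over the 4 ratios 1). The endothelial sum itself was 372.0 to 406.3 CPM in WT and 375.2 to 443.7 CPM in Opa1+/- mice, with 9 of 9 markers higher in Opa1+/- mice, and 2 at an unadjusted p under 0.05, while 6.72% of all genes passed that p in either direction and 49.9% were negative. Cldn11 was 15.01 ± 1.22% and 14.8 ± 1.65% of the strial marginal and intermediate sum (exact permutation p = 1, adjusted 1). That sum holds markers of the other strial layers, and no list of basal cell markers was used. The groups overlapped in both ratios, whereas 7.12% of all genes were separate relative to the endothelial sum and 0.305% relative to the strial sum. Oligodendrocytes also carry Cldn11, and their markers summed to 156.7 to 294.0 CPM in WT and 189.2 to 308.9 CPM in Opa1+/- mice. Their part in the Cldn11 values was not tested.

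Against the hair cell markers, both reticular lamina claudins were higher in all 4 Opa1+/- mice than in all 4 WT mice. The reticular lamina also holds supporting cells, whose markers summed to 242 to 408 CPM in WT and 289 to 388 CPM in Opa1+/- mice. Ratios to the supporting cell sum were not tested. Cldn9 was 10.2, 10.4, 9.04 and 10.1% of the hair cell sum in WT and 10.6, 11.2, 11.3 and 11.2% in Opa1+/- mice. Cldn14 was 0.730, 0.775, 0.768 and 0.711% in WT and 0.825, 0.807, 0.832 and 0.973% in Opa1+/- mice, in the same order. Cldn14 had 27 to 42 counts per library, where counting error alone is 16.3% in WT and 16.4% in Opa1+/- mice. The log2 differences were 0.16 for Cldn9 and 0.20 for Cldn14, each with an exact permutation p of 0.0286, the smallest the design allows, and 0.0571 after adjustment, so neither passed correction. The exact permutation p was 0.0571 before adjustment for Cldn9 without WT_6 (log2 difference 0.11) or Het_484 (0.14) and for Cldn14 without WT_4 (0.19) or WT_8 (0.18), and the remaining mice of the groups did not overlap in any of these. Both ratios share their denominator, and 0.95% of all genes were separate and higher in Opa1+/- mice in this ratio. That share covers the higher direction only, whereas the permutation test is two-sided. The hair cell sums were 211.0, 264.7, 311.3 and 282.2 CPM in WT and 257.9, 242.3, 252.9 and 262.5 CPM in Opa1+/- mice, with overlapping groups. Myo6, a hair cell myosin, made up 45.2% to 53.0% of that sum, and without it the log2 differences were 0.084 (exact permutation p = 0.4) and 0.13 (exact permutation p = 0.143), so neither ratio separated the groups without this marker.

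**Figure D4:**
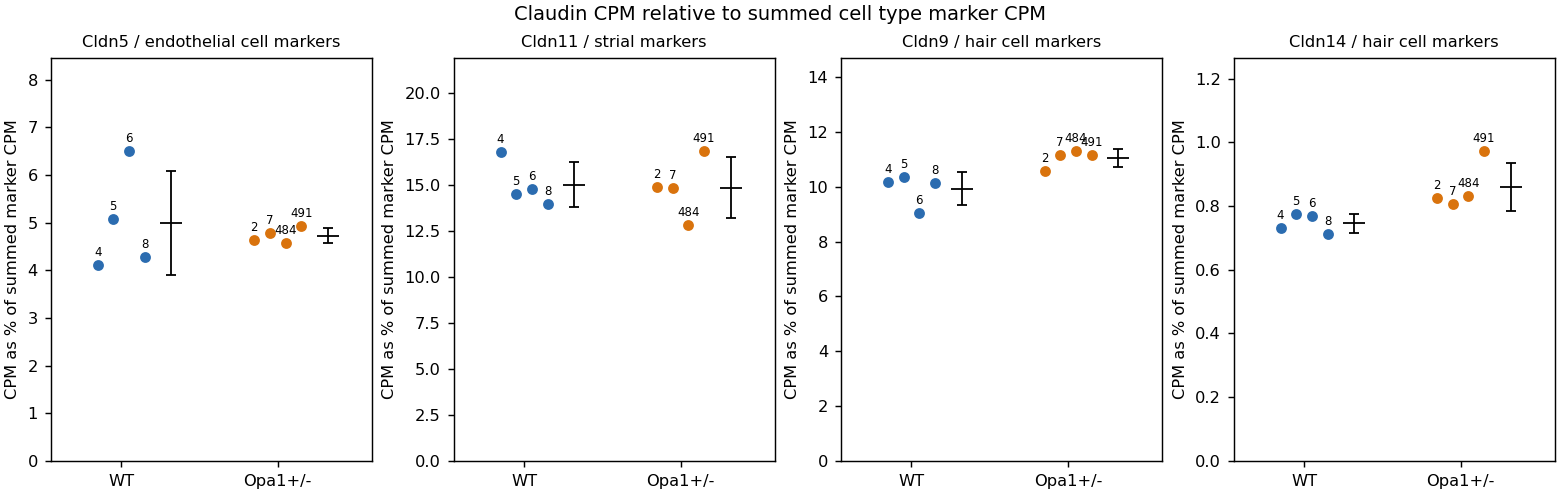
CPM of 4 claudins as a percentage of the summed CPM of cell type markers (axes from 0) in every mouse, WT in blue and Opa1+/- in orange, with the mean and SD of each group of 4. Only the 2 hair cell panels show groups that do not overlap. The ranges are 9.04 to 10.4% against 10.6 to 11.3% for Cldn9 and 0.711 to 0.775% against 0.807 to 0.973% for Cldn14. Cldn14 had 27 to 42 counts per library.

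Genes whose profile over the 8 mice lay closest to a member were found by the root mean square difference of centred log2 CPM. They are given for the 3 members that varied most. Cldn6 (SD 0.49 on the log2 scale) was nearest to Gm16284, Cldn10 and 4921504A21Rik, with differences of 0.16, 0.18 and 0.19. Cldn5 (SD 0.24) was nearest to Cyp26a1, which degrades retinoic acid, to the glycine transporter Slc6a9 and to the transcription factor Bhlhe40, with differences of 0.084, 0.084 and 0.088. Marveld2 (SD 0.23) was nearest to Tlr2, Hist1h2br and Bend7, with differences of 0.084, 0.087 and 0.0898. Cldn11 (SD 0.23) was added after its values were seen: its nearest gene was Kcnj10, the potassium channel of strial intermediate cells, with a difference of 0.0498, followed by Fam101b at 0.051 and Dkk2 at 0.0595. These are descriptions over 8 mice, in which both genes of a pair were read from the same libraries.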

How the data were processed

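RNA from isolated cochleae of 8 mice, extracted with TRI Reagent or an RNeasy kit per the labels (which mouse by which is not given), was made into CORALL libraries, whose molecular identifiers the authors used against amplification bias, and sequenced in pairs of 80-base reads. Per the submitters' processing notes, FastQC and STAR were used with GRCm38 (mm10). The deposited values are whole-number counts per gene, and 15 entries without a gene symbol, holding 0.112% to 0.124% of counts, were left out. The counting program and its strand setting are not given in the sources used here.

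Groups and animal numbers came from the sample titles. Genes with a DESeq2-normalized mean count over 10 were tested with edgeR 4.0.16 (quasi-likelihood, TMM factors 0.948 to 1.06, Benjamini-Hochberg over 19366 genes, adjusted p under 0.05, no covariates) in R 4.3.3. DESeq2 1.42.0 and limma 3.58.1 served as alternatives, and the fits were tested on simulated data. Exon lengths and coding sequences came from GENCODE vM21, and marker ratios were tested by exact permutation with scipy 1.17.1. Depth allowed 11 to 27 counts per library for the scarcest gene, and the intervals given are edgeR's 95% intervals over mice.

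The 9 genes and all lists were chosen with earlier results of these data known. Named besides them were Opa1, up to 4 genes with the lowest unadjusted p and up to 3 with the highest level per kilobase from each other tight junction list, and the 3 genes nearest in profile to the members with the largest SD, among genes whose SD was at least 50% of the member's. The samples came from separate mice, and p-values measure the spread between these mice. Alternatives were other normalizations, filters, tests and thresholds, each mouse left out, and both Opa1+/- mice with 3-digit numbers (Het_484 and Het_491) left out. The marker sum without its most abundant marker was added after seeing the data.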

Additional observations from a re-analysis of the deposited data

Results flagged for a closer look

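In 6 of 88 groups of 4 mice, 1 mouse lay far from the other 3 by Dixon's 95% criterion on the gap over the range, and chance alone gives about 1 in 20, or 4.4 of 88. Cldn9 was 21.5 CPM in WT_4, while the remaining WT mice lay between 27.4 and 28.6 CPM. Cldn9 relative to hair cell markers was 9.04% in WT_6, against 10.1% to 10.4%. Cldn14 relative to hair cell markers was 0.973% in Het_491, against 0.807% to 0.832% in the other Opa1+/- mice. Clmp, an adhesion protein of epithelial junctions, was 110.7 CPM in 1 WT mouse, against 81.8 to 85.8 CPM. Strial marginal markers summed to 255.6 CPM in WT_4, against 463.4 to 505.6 CPM, and neutrophil markers to 1401 CPM in the same mouse, against 430.4 to 524.1 CPM.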

How the results depend on the processing

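Under 17 alternatives, 140 of 153 fold changes of the 9 genes kept their direction, none passed adjustment, and the lowest adjusted p was 0.429, for Tjp1. The 13 that turned, all with 1 mouse left out, were near 0: Cldn9 without WT_4 (-0.0014), Cldn5 without WT_4 (-0.063), WT_8 (-0.055) and Het_7 (-0.00092), Cldn11 without WT_6 (0.058), Marveld2 without WT_5 (0.0051), WT_8 (0.025), Het_2 (0.097) and Het_7 (0.043), and Ildr1 without WT_5 (0.04997), WT_8 (0.069), Het_2 (0.0089) and Het_7 (0.0598). With 1 mouse left out, the fold changes ran from -0.20 to 0.058 for Cldn11, -0.0014 to 0.12 for Cldn9, -0.063 to 0.22 for Cldn5, 0.025 to 0.22 for Cldn14, -0.85 to -0.51 for Cldn6, -0.35 to -0.16 for Ocln, -0.23 to -0.14 for Tjp1, -0.16 to 0.097 for Marveld2 and -0.11 to 0.069 for Ildr1. The count of the 9 genes with an unadjusted p under 0.05 was 1 by DESeq2, 1 by limma-voom, 3 with no filter on low counts, 0 without both 3-digit Opa1+/- mice, and 0 (without WT_5, WT_6 or Het_484) to 3 (without WT_8) with 1 mouse left out. That p was under 0.05 in 8 of 17 alternatives for Cldn6, 11 of 17 for Tjp1 and 3 of 17 for Ocln. The main edgeR fit gave Ocln an unadjusted p of 0.0679. The share of all genes under that threshold was counted only for the main fit, DESeq2 and limma-voom. The median of the 9 ran from -0.11 to 0.0089 with 1 mouse left out, and was -0.15 without both 3-digit Opa1+/- mice, where Marveld2 was at -0.28 and Ildr1 at -0.19.

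Among the ratios, Cldn9 to hair cell markers gave log2 differences of 0.13 without both 3-digit mice (exact permutation p = 0.2, against a smallest possible 0.0667), 0.12 with the mean log2 of the markers (exact permutation p = 0.229) and 0.084 without Myo6, and 0.11 to 0.18 with 1 mouse left out (exact permutation p = 0.0571 without WT_6 or Het_484). Cldn14 gave 0.13, 0.17 (exact permutation p = 0.0571), 0.13 and 0.14 to 0.23 in the same order (exact permutation p = 0.0571 without WT_4 or WT_8). Cldn5 to endothelial markers ran from -0.14 to 0.081 with 1 mouse left out, turning positive without WT_6 (0.081), and was -0.078 without its most abundant marker, Pecam1. Cldn11 to strial markers ran from -0.082 to 0.0498 with 1 mouse left out and was -0.092 without its most abundant marker, Lrp2 (exact permutation p = 0.229), turning positive without WT_4 (0.036), without Het_484 (0.0498) and with the mean log2 of the markers (0.024). The causes were not tested. No paired analysis was possible because the labels name no litter or other pairing of the mice. Depth limits Cldn6 and Cldn14, and 4 mice a group limit all 9 genes.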
